A study of Rattus norvegicus with 36 samples.

Results

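The genes described here code for the protein kinases that carry signals from the cell surface, cyclic AMP, calcium and the energy state into the muscle cell, together with a few of their subunits and scaffolds. They were taken from an array study of rat muscle as the probe sets with 1 gene symbol beginning Mapk, Map2k, Map3k, Prka, Prkc, Prkg, Camk, Akt or Rps6k that read above an intensity of 320 on 3 or more of 36 arrays. Where a gene had several such probe sets, the one with the highest mean stood for it. This gave 48 genes, of the 53 with a matching symbol and of the 3889 genes with 1 symbol that were bright enough to be tested. The 5 genes under the limit were Camk2n1, Camk2n2, Camk4, Map3k8 and Prkar2b. Just inside it lay Prkca, above 320 on 3 arrays, and Prkaa1, on 4. Just outside lay Camk2n2, above 320 on 2 arrays, and Camk2n1, on 1.

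MAP kinases are the last members of 3-step relays in which a MAP kinase kinase kinase (Map3k) switches on a MAP kinase kinase (Map2k), which in turn switches on the MAP kinase (Mapk). PKA is held inactive by regulatory subunits until cyclic AMP binds them. Most PKC isoforms answer to diacylglycerol, and some of them to calcium too. CaM kinases answer to calcium bound to calmodulin, AMPK to a fall in cellular energy, and Akt and S6 kinase to insulin and growth factors. In skeletal muscle these pathways are known for their part in growth, glucose uptake, fibre type and the response to activity.

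Total RNA of extraocular muscle (EOM), the muscles that move the eye, was compared with RNA of a leg sample labelled gastrocnemius/soleus, which are calf muscles. Both came from Rattus norvegicus at postnatal days 0, 7, 14, 21, 28 and 45, with 3 Affymetrix short-oligonucleotide arrays for each muscle and day, 36 in all. The labels give no strain, sex or treatment and do not say whether animals were pooled or whether each array had an animal of its own. The p-values therefore reflect the scatter among arrays of a group, which may be technical. Each array carries 1 value per probe set, an intensity on a linear scale. Differences below are log2 differences of group means with the standard error (SE) of a limma fit over all 36 arrays. A difference was called when its Benjamini-Hochberg adjusted p over all 6674 tested probe sets was under 0.05. The number of arrays, 3 in a group, limits the precision. RNA levels say nothing of kinase activity, and in these whole-muscle samples fewer cells of a type and less RNA per cell cannot be told apart.

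Array medians ran from 418.7 to 652.2, and arrays of 1 group correlated at 0.877 or above. The lowest correlations, 0.877 and 0.894, were those of EOM day 45 array 3 with the other two arrays of its group. Its summed signal of 10 skeletal fibre markers was 230360.0, against 91985 and 69130.0 on those arrays. At day 21, EOM arrays 1 and 3 had summed leukocyte marker signals of 24455 and 25638, and array 2 had 6672. For kinase genes called at day 21 or 45, or for the change with age in EOM, results are therefore given with and without them. F tests of single genes and results of partner genes are given with all arrays only. The array numbered 3 was the lowest of its group in 266 of 576 pairs of gene and group, against 170 for arrays numbered 1 and 140 for arrays numbered 2. This count was made for the kinase genes only. Over all tested probe sets, arrays numbered 3 had a median log2 deviation from their group mean of -0.178 to -0.015 in EOM and -0.043 to 0.039 in leg. Low values on these arrays were therefore not particular to the kinase genes.

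Other cell types differed between the muscles as well. Of 10 Schwann cell and axon markers, 4 to 6 were higher in EOM at each day. Their summed signal was 28753 to 30135 in EOM and 21021 to 25916 in leg at day 0, 32842 to 41935 in EOM and 21571 to 26730.0 in leg at day 14, and 25761 to 38728 in EOM and 9558 to 15342 in leg at day 45. Gland and simple epithelium markers were higher in newborn EOM for 8 of 8 tested, with a summed signal of 26937 to 37554 in EOM and 1984 to 4328 in leg at day 0, and 8561 to 20140.0 in EOM and 2039 to 3232 in leg at day 7, when 6 of 8 were higher. At day 14 none of the 8 was called by limma, with sums of 2207 to 2467 in EOM and 2449 to 2734 in leg. Endothelium and smooth muscle markers were higher in EOM for 4 of 6 at day 45, with sums of 17517 to 21999 in EOM and 6584 to 9118 in leg. Leukocyte markers were higher in EOM for 3 of 8 at day 21, with sums of 6672 to 25638 in EOM and 3388 to 5211 in leg. No marker lay at the floor of the scale on all arrays. The part of these cells in the kinase results was not tested. Skeletal fibre markers had a median EOM minus leg difference of 0.00 over the 6 days, with 2 of 10 called higher and 4 lower in EOM.

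Averaged over the 6 days, 21 of the 48 kinase genes differed between the muscles, 43.8%, against 31.8% of all tested probe sets. Here and below the kinase genes are counted by 1 probe set each, that of highest mean. The share of all tested probe sets takes in every tested probe set of a gene, also dimmer ones. In EOM 8 were higher (19.8% of all tested probe sets were) and 13 lower (12% were). The largest differences either way were those of Map3k1, at 0.97, and Mapk12, at -1.18. From birth to day 45, 12 genes changed in EOM and 17 in leg, which was 25% and 35.4% of the 48, against 31.3% and 32.8% of all tested probe sets. In all, 30 of the 48 were called in at least 1 of 12 tests, 62.5%, and of all tested probe sets 62% were. The median difference over the 6 days was 0.00 for the 48 genes and 0.04 for all tested probe sets.

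At single days the counts were smaller. At day 0, 2 of 48 were called (4.17%, against 6.32% of all tested probe sets), 1 higher in EOM (against 3.93%) and 1 lower (against 2.4%), with a median difference of 0.02 for the 48 genes and 0.05 for all probe sets. At day 7 there were again 2 (4.17%, against 4.97%), 1 higher (against 3.33%) and 1 lower (against 1.65%). At day 14 there were 7 (14.6%, against 4.91%), 3 higher (against 2.61%) and 4 lower (against 2.31%), and the medians were -0.09 for the 48 genes and 0.01 for all probe sets. Day 21 had 4 (8.33%, against 4.03%), 3 higher (against 3.48%) and 1 lower (against 0.554%), with medians of 0.03 and 0.08. Day 28 had 9 (18.8%, against 11.8%), 4 higher (against 7.63%) and 5 lower (against 4.17%), with medians of 0.04 and 0.05. Day 45 had 6 (12.5%, against 10.6%), 2 higher (against 6.89%) and 4 lower (against 3.69%), with both medians at 0.01. Map3k1, Camk2d and Prkar1a were each called at 4 of the 6 days, Mapkapk3 at 3, and Mapk12, Mapk14 and Mapk6 at 2. Another 9 genes were called at 1 day.

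**Figure D1:**
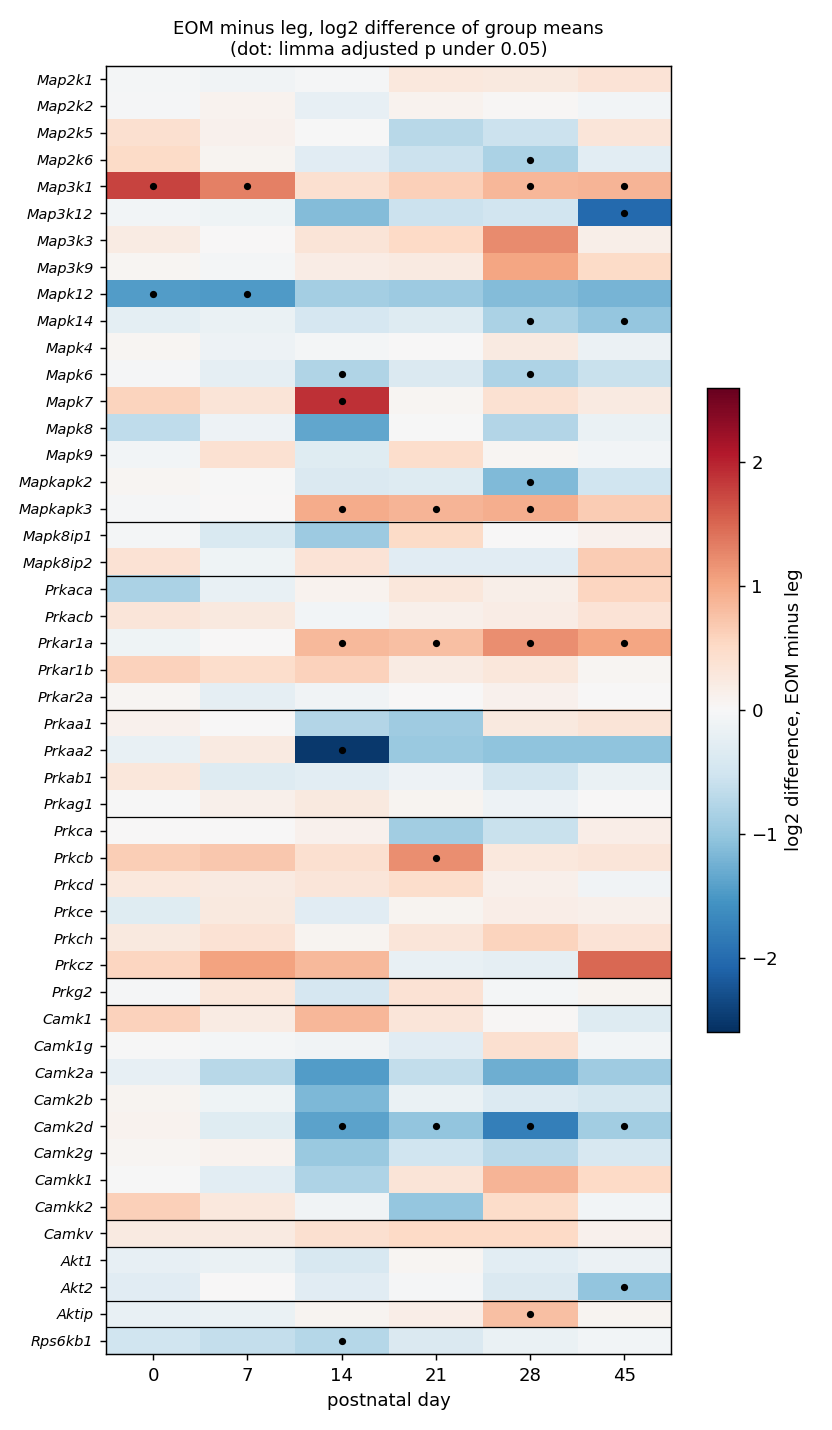
Log2 difference of group means, EOM minus leg, for the 48 kinase genes (rows, grouped by family) at postnatal days 0 to 45 (columns). Red is higher in EOM, blue lower, and a black dot marks a limma adjusted p under 0.05. Map3k1 is red and dotted at days 0, 7, 28 and 45, Prkar1a from day 14 onward, and Camk2d is blue and dotted from day 14 onward.

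**Figure D2:**
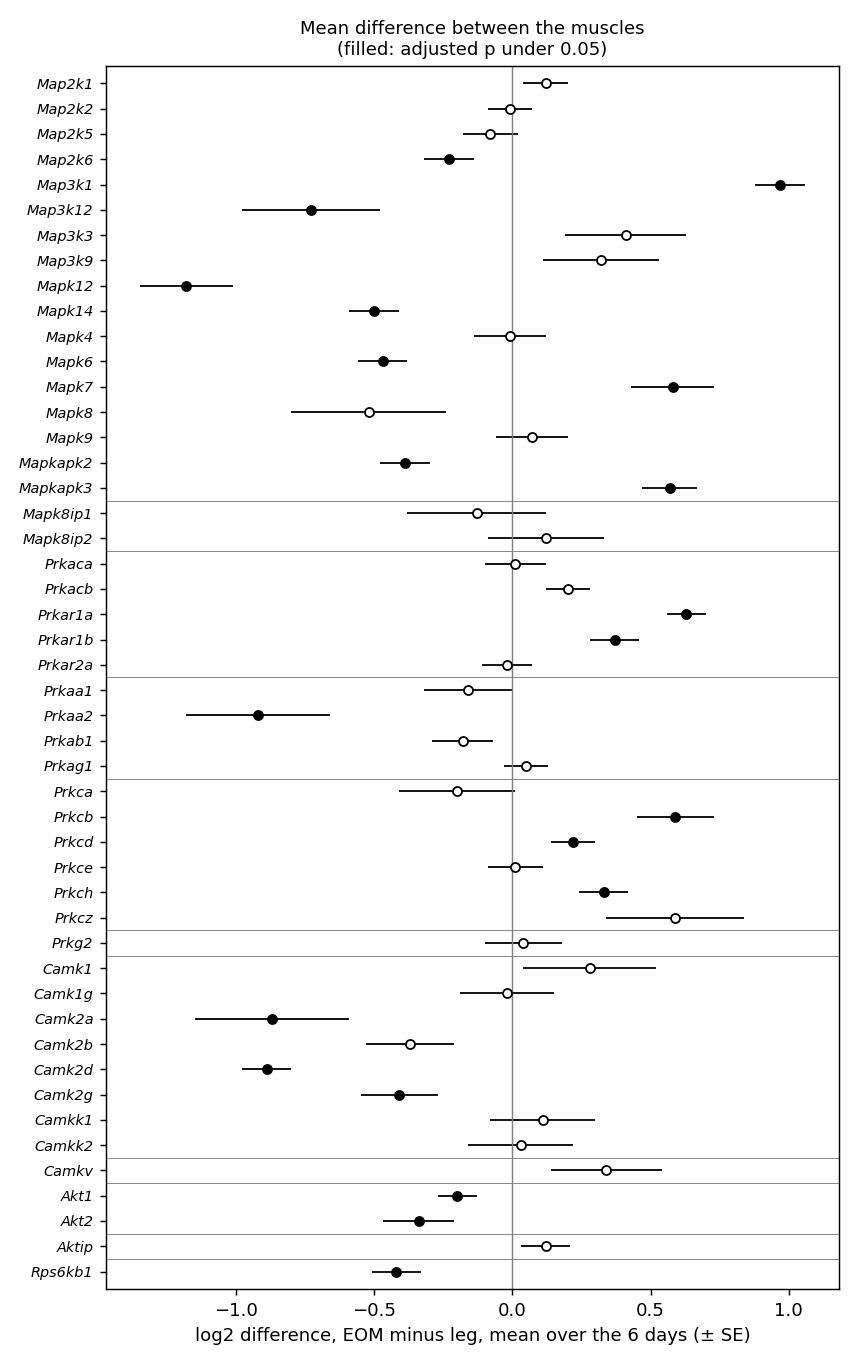
EOM minus leg log2 difference averaged over the 6 days, with its SE, for each kinase gene. Filled points passed an adjusted p of 0.05. They run from -1.18 for Mapk12 to 0.97 for Map3k1.

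Promoter sequences are shown for the 3 genes called at most days between the muscles, Map3k1, Camk2d and Prkar1a, and for Mapk12, the gene with the largest change with age. They run from 250 bases before to 50 bases after the start of the gene in RefSeq, assembly GRCr8, and are written 5′ to 3′ in the direction of the gene. Mapk12 is at chr7:122096258-122096557 on the minus strand, Map3k1 at chr2:45147969-45148268 on the minus strand, Prkar1a at chr10:95120287-95120586 on the plus strand and Camk2d at chr2:217698301-217698600 on the plus strand. Capitals mark GC boxes, GGGCGG on either strand.
Mapk12: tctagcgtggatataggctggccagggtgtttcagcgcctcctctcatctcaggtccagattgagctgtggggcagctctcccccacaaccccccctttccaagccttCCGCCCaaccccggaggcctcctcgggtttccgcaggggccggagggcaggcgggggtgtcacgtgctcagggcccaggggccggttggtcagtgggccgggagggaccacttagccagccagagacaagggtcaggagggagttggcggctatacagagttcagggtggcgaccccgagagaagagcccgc
Map3k1: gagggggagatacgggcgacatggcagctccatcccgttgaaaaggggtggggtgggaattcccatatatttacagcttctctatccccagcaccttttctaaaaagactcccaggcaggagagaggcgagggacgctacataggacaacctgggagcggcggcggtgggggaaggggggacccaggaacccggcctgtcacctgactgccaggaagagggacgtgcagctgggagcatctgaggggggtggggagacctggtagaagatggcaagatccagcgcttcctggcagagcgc
Prkar1a: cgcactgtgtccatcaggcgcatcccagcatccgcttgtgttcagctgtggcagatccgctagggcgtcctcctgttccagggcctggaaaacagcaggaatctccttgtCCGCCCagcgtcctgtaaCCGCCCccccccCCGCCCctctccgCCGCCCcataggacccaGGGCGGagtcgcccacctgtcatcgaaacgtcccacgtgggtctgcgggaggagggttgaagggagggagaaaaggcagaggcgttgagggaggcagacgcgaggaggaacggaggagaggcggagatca
Camk2d: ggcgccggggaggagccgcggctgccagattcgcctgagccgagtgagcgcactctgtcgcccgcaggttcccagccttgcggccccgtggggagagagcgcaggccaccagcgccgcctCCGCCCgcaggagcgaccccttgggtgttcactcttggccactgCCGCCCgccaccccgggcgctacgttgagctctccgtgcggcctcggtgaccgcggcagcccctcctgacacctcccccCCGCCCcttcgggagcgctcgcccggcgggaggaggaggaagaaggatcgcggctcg
The Mapk12 window held 1 GC box, that of Prkar1a 5 and that of Camk2d 3, and the Map3k1 window held none. Of the 48 genes, 41 had a promoter entry, and 30 of these, 73.2%, held a GC box, as did 33.1% of 33469 rat promoters of the same length. The E-box, CANNTG on either strand, to which myogenic factors bind, stood in 20 of the 41, 48.8%, against 72.1% of all promoters. It occurred once in the Mapk12 window, 3 times each in those of Map3k1 and Prkar1a, and in none of Camk2d. GC boxes and E-boxes are counted separately and may overlap. A TATA box, TATAAA on either strand, stood in 2 of the 41, Akt2 and Prkcd (4.88%, against 14.2%). The MCAT motif CATTCC, the AP-1 motif TGANTCA, the cyclic AMP response element TGACGTCA and the MEF2 motif, each searched on both strands, were in 0 of the 41, and in 14.2%, 7.33%, 1.83% and 3.29% of all promoters in that order. The 33469 promoters were not limited to genes bright enough to be tested here, so these shares compare unlike sets. The matches describe the letters in the window and say nothing of binding.

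At the top of the MAP kinase relay, Map3k1, which codes for a kinase upstream of the JNK branch, was the most strongly EOM-biased of the 48 genes at birth. In EOM Map3k1 read 10111, 9273 and 7752 at day 0, 7113, 8780.1 and 4289.5 at day 7, 2464, 1785 and 2604 at day 14, 2170.3, 2316 and 1988 at day 21, 3036, 2550.2 and 1980.4 at day 28 and 2174, 2235 and 1316 at day 45. The leg arrays of Map3k1 read 2346, 2633 and 3123 at day 0, 2654, 2675 and 2503 at day 7, 1619.7, 1643 and 1815 at day 14, 1269.6, 1606 and 1389 at day 21, 1555, 1237 and 1346 at day 28 and 929, 1347 and 802 at day 45. All EOM arrays lay above all leg arrays at days 0, 7, 21 and 28, the level fell in both muscles after the first week, and at days 14 and 45 the ranges overlapped. The difference was 1.75 ± 0.23 (SE; adjusted p = 3.4e-06) at day 0, 3.35-fold, and 1.30 ± 0.23 (SE; adjusted p = 0.000369) at day 7. It was 0.86 ± 0.23 (SE; adjusted p = 0.0127) at day 28 and 0.89 ± 0.23 (SE; adjusted p = 0.0109) at day 45, and 0.97 ± 0.09 (SE; adjusted p = 1.79e-09) over the 6 days. The calls at days 0 and 7 held with each array left out. At day 28 the call ended without EOM array 1 or leg array 2 (0.71 to 1.02 over the 6 arrays left out singly), and at day 45 without EOM array 1 or 2 or leg array 3 (0.73 to 1.14 over the 6 arrays left out singly). The gene's other two probe sets gave 1.30 and 1.28 at day 0, both called. They gave 0.30 and 0.33 at day 28 and 0.03 and 0.21 at day 45, none called, and the mean of the 3 probe sets ended the calls at day 28 (0.49, adjusted p = 0.128) and day 45 (0.38, adjusted p = 0.301). The fall of Map3k1 from day 0 to day 45 was -2.28 ± 0.23 (SE; adjusted p = 6.1e-09) in EOM and -1.42 ± 0.23 (SE; adjusted p = 1.4e-05) in leg. Both other probe sets were called for it in EOM and neither in leg, where they gave -0.15 and -0.63. The gland and epithelium markers given above were also high in EOM at days 0 and 7, and their part in the Map3k1 result was not tested.

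Map3k12 codes for a kinase best known in neurons, where it acts in the response to axon injury. It read 1031, 1388 and 405 in EOM and 3511, 3724 and 2927 in leg at day 45. Every EOM array was under every leg array. The day 45 difference was -2.02 ± 0.62 (SE; adjusted p = 0.0323), and the mean over the days -0.73 ± 0.25 (SE; adjusted p = 0.0253). The day 45 call ended without EOM array 1 or 3 or leg array 1 or 2 (-2.38 to -1.49 over the 6 arrays left out singly). Without EOM array 3, the array that stands apart, it was -1.49, adjusted p = 0.159. Map3k12 was lowest on the array numbered 3 in 10 of 12 groups. Map3k3 and Map3k9 were not called in any test. Their mean differences were 0.41 (adjusted p = 0.16) and 0.32 (adjusted p = 0.275).

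Among the MAP kinase kinases, Map2k6, an activator of the p38 kinases, was called between the muscles at day 28 and at no other single day. At day 28 it read 2282, 2135 and 1670.1 in EOM and 4099.5, 2738 and 3949.7 in leg, with no overlap. Its EOM arrays also lay below all leg arrays at day 21 (1897 to 1950 against 2604 to 3149) and day 45. At day 0 they lay above all leg arrays, by a narrow gap (lowest EOM array 1365.1, highest leg array 1361.3). The differences at these 3 days were not called. At day 28 the difference was -0.82 ± 0.21 (SE; adjusted p = 0.00956), and the call ended without EOM array 3 or leg array 1 (-1.0 to -0.68 over the 6 arrays left out singly). Its mean difference over all days was -0.23 ± 0.09 (SE; adjusted p = 0.0411), a call that ended with the replicate number as a block (adjusted p = 0.0579) and on leaving out any of 22 of the 36 arrays (-0.27 to -0.20). In leg the gene rose with age, reading 3107, 2978 and 2784 at day 45 and 1037, 1264 and 1361 at day 0, a change of 1.28 ± 0.21 (SE; adjusted p = 1.77e-05). The EOM arrays read 2463, 2517 and 2321 at day 45 and 1518, 1365 and 2398 at day 0, a change of 0.51 ± 0.21 (SE; adjusted p = 0.0665) that was not called. The difference between these changes was -0.77 ± 0.30 (SE; adjusted p = 0.181), also not called.

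The other MAP kinase kinases moved less. Map2k2, an activator of the ERK kinases, ran from 4598 to 9539 on the 18 EOM arrays and from 4817 to 10495 on the 18 leg arrays, with a mean difference of -0.01 ± 0.08 (SE; adjusted p = 0.912). Its ages differed in leg by the F test (F = 3.69, adjusted p = 0.0322), with the lowest mean at day 0. Map2k1, its close relative, fell in leg to 2916, 4811 and 4039 at day 45, against 5308, 6769 and 5038 at day 0, a change of -0.56 ± 0.21 (SE; adjusted p = 0.037). Another probe set of Map2k1 moved the other way, by 0.71 (adjusted p = 0.0443), so the probe sets of this gene disagree in direction. The call itself ended without leg day 0 array 1 or 2 or leg day 45 array 1 or 3 (-0.72 to -0.36 over the 6 arrays left out singly). Map2k5, the activator of Mapk7, differed between ages in EOM (F = 5.83, adjusted p = 0.00394), with the highest mean at day 0 and the lowest at day 21. In EOM Map2k5 read 1593, 1285 and 1746 at day 0, 368, 869 and 890.5 at day 21 and 793, 861 and 997 at day 28. The low mean at day 21 leaned on array 1, which had high leukocyte signal. The F test of Map2k5 is given with all arrays only.

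Mapk12 codes for p38 gamma, the p38 kinase that is rich in skeletal muscle, and it had the largest rise with age of the 48 genes in both muscles. In EOM Mapk12 read 157, 90.7 and 163 at day 0, 152, 542 and 531 at day 7, 851, 1278 and 825 at day 14, 2028, 1554 and 1139 at day 21, 1303, 1439 and 1448 at day 28 and 1283, 680.2 and 1333 at day 45. In leg it read 146, 628 and 587 at day 0, 751, 1146 and 1102 at day 7, 1631, 1765 and 1924 at day 14, 3126, 3031 and 2753 at day 21, 2873, 2242 and 4439.6 at day 28 and 2208, 3019 and 2133 at day 45. The level climbed until day 21 in both muscles and then levelled off, and the EOM arrays stood below the leg arrays at days 7, 14, 21, 28 and 45 with no overlap. Day 45 exceeded day 0 by 2.94 ± 0.43 (SE; adjusted p = 2.99e-06) in EOM and 2.68 ± 0.43 (SE; adjusted p = 1.07e-05) in leg, at least 7.67-fold in EOM, where 1 newborn array lay at the floor of the scale, and 6.42-fold in leg. Both calls held with each array left out. Another Mapk12 probe set gave 1.85 in EOM and 1.83 in leg, both called.

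Between the muscles Mapk12 was lower in EOM, at -1.18 ± 0.17 (SE; adjusted p = 3.35e-06) over the 6 days, a call that held with each array left out and in the second probe set (-0.87, adjusted p = 3.03e-05). It was called at day 0, at -1.46 ± 0.43 (SE; adjusted p = 0.0352), and at day 7, at -1.48 ± 0.43 (SE; adjusted p = 0.037). At these days the second probe set gave -0.90 (adjusted p = 0.175) and -0.86 (adjusted p = 0.26), neither called. Leg array 1 at day 0 read 146, inside the EOM range, so the groups overlapped there. The day 0 call ended without EOM array 1 or 2 or leg array 2 or 3 (-2.15 to -1.09 over the 6 arrays left out singly), and the day 7 call without EOM array 1 or leg array 1, 2 or 3 (-1.79 to -0.87 over the 6 arrays left out singly). The values at days 14 to 45, -0.88, -0.95, -1.13 and -1.20, did not pass the threshold (adjusted p = 0.297, 0.25, 0.087 and 0.0696). The change with age differed between the muscles by 0.26 ± 0.61 (SE; adjusted p = 0.922), which was not called.

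Mapk14, which codes for the widely expressed p38 alpha, parted later. At day 45 it read 3881, 3636 and 2403 in EOM and 6305, 7064 and 6145 in leg. At day 28 the readings were 3451, 3081 and 2549 in EOM and 5292, 5091 and 5659 in leg. Both days separated the muscles completely. The differences were -1.0 ± 0.23 (SE; adjusted p = 0.00395) and -0.83 ± 0.23 (SE; adjusted p = 0.0154). The day 45 call held with each array left out, EOM array 3 included (-0.79, adjusted p = 0.0328), while the day 28 call ended without EOM array 3 or leg array 3 (-0.93 to -0.71 over the 6 arrays left out singly). All 5 other Mapk14 probe sets were lower in EOM at day 45, from -2.18 to -0.82, and 2 of them were called. In leg the gene rose by 0.76 ± 0.23 (SE; adjusted p = 0.0105) from day 0, when it read 3565, 3722 and 4230.4, to day 45. For this rise the 5 other probe sets gave between -0.35 and 0.98, 1 of them called, and the mean of the 6 was not called (0.44, adjusted p = 0.21).

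Mapk7, which codes for the kinase known as ERK5, was higher in young muscle. In EOM Mapk7 read 1728, 979.7 and 1584 at day 0, 697, 968 and 1088 at day 7, 748, 939 and 839.8 at day 14, 313, 221 and 215 at day 21, 327, 428 and 178 at day 28 and 213, 399.5 and 278 at day 45. The leg arrays of Mapk7 read 565, 1234 and 1187 at day 0, 598, 1115 and 551 at day 7, 238, 212 and 225 at day 14, 346, 198 and 196 at day 21, 329.6, 175 and 192 at day 28 and 279.6, 223 and 231 at day 45. The leg arrays were low from day 14 onward and the EOM arrays from day 21 onward, so at day 14 all 3 EOM arrays lay above all 3 leg arrays, by 1.90 ± 0.36 (SE; adjusted p = 0.00107), 3.73-fold. Day 45 minus day 0 was -2.27 ± 0.36 (SE; adjusted p = 1.19e-05) in EOM and -1.95 ± 0.36 (SE; adjusted p = 8.98e-05) in leg. These calls held with each array left out. The second Mapk7 probe set gave 0.40 at day 14 (adjusted p = 0.839), and -0.57 and -0.66 for the changes in EOM and leg, none of them called.

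Mapk6 codes for an atypical MAP kinase. At day 14 it read 2659.6, 3479.8 and 2690.3 in EOM and 4996, 5046 and 4974 in leg, a difference of -0.78 ± 0.22 (SE; adjusted p = 0.0361). At day 28 the difference was -0.81 ± 0.22 (SE; adjusted p = 0.0145), although leg array 2, at 2917, lay within the EOM range of 2342 to 3190.0. The day 14 call ended without EOM array 1 or 3 or leg array 1, 2 or 3 (-0.90 to -0.71 over the 6 arrays left out singly), and the day 28 call without EOM array 3 or leg array 1 or 3 (-1.19 to -0.59 over the 6 arrays left out singly). The second Mapk6 probe set was lower in EOM at day 14 too (-1.34, adjusted p = 0.00157). For Mapk6 the mean over all days was -0.47 ± 0.09 (SE; adjusted p = 0.00016). Mapk4, another atypical MAP kinase, and Mapk8 and Mapk9, which code for JNK kinases, were called in no test. Mapk8 stood at -0.52 over the 6 days (adjusted p = 0.167) and had 4 of its 36 arrays at the floor.

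The kinases that p38 switches on in turn, coded by Mapkapk2 and Mapkapk3, differed in opposite directions between the muscles. In EOM Mapkapk3 read 2061, 1685 and 1617 at day 0, 2809, 2394 and 1841 at day 7, 2572, 2794 and 3163 at day 14, 2371, 3322 and 3427 at day 21, 4698, 4340.3 and 4082 at day 28 and 6251, 4979.5 and 4177 at day 45. In leg it read 1792, 2208 and 1545 at day 0, 2111, 2498 and 2351 at day 7, 1569, 1909 and 1015 at day 14, 1615, 1789 and 1454 at day 21, 1369, 2500.0 and 3408 at day 28 and 2873, 4002 and 2865 at day 45. EOM lay above leg with no overlap at days 14, 21, 28 and 45, and the leg arrays dipped at days 14 and 21. The differences were 0.97 ± 0.25 (SE; adjusted p = 0.0183) at day 14, 0.89 ± 0.25 (SE; adjusted p = 0.0371) at day 21 and 0.94 ± 0.25 (SE; adjusted p = 0.0114) at day 28. At day 45 the difference was 0.66 ± 0.25 (SE; adjusted p = 0.0941), which was not called. Mapkapk3 rose with age by 1.51 ± 0.25 (SE; adjusted p = 2.11e-05) in EOM and 0.81 ± 0.25 (SE; adjusted p = 0.0128) in leg. Between the muscles at day 14 its 3 other probe sets gave 0.16, 0.72 and -0.12, of which the second was called, and the mean of the 4 probe sets was not called (0.43, adjusted p = 0.319). For the change with age in EOM all 3 rose, by 2.28, 1.30 and 1.23, all called.

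The Mapkapk3 call at day 21 was the least firm. It ended without EOM array 2 or 3 or leg array 1, 2 or 3 (0.80 to 1.06 over the 6 arrays left out singly) and under both other scalings of the arrays. It also ended with the replicate number as a block (0.89, adjusted p = 0.0557), a pairing the labels do not state. The day 14 call ended without EOM array 2 or 3 or leg array 3 (0.71 to 1.17 over the 6 arrays left out singly), the day 28 call without EOM array 1 or leg array 1 (0.58 to 1.24 over the 6 arrays left out singly), and the rise in leg without leg day 0 array 3 or leg day 45 array 2 (0.65 to 0.95 over the 6 arrays left out singly). Over the 6 days the gene was higher in EOM by 0.57 ± 0.10 (SE; adjusted p = 6.08e-05), which held with each array left out. Mapkapk2 read 2286, 2279 and 1341 in EOM and 3159, 4866 and 4982 in leg at day 28. Its EOM arrays all lay below its leg arrays, with a difference of -1.15 ± 0.23 (SE; adjusted p = 0.000913), and the call held with each array left out. Its mean difference over all days was -0.39 ± 0.09 (SE; adjusted p = 0.00178). In leg Mapkapk2 rose by 0.63 ± 0.23 (SE; adjusted p = 0.0356) from day 0 to day 45, a call that ended without leg day 0 array 1 or 3 or leg day 45 array 2 or 3 (0.50 to 0.79 over the 6 arrays left out singly).

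**Figure D3:**
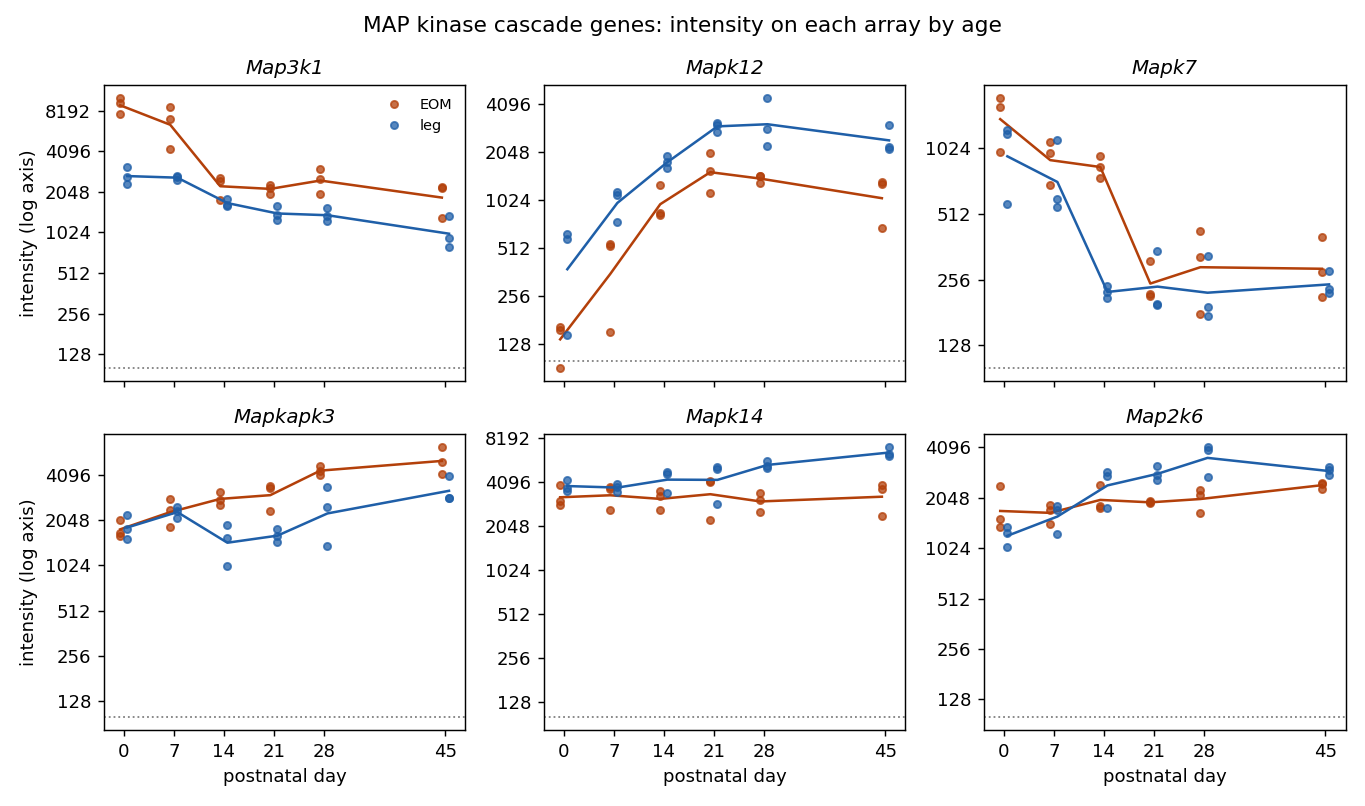
Intensity on each array (points, log axis) by postnatal day for 6 genes of the MAP kinase relay, EOM in orange and leg in blue, with lines through the means of the log2 values and a dotted line at the floor of 100.9. Map3k1 starts between 7752 and 10111 in EOM and stays above leg in group mean, Mapk12 climbs in both muscles with EOM below leg, and Mapk7 drops a week earlier in leg.

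The scaffolds Mapk8ip1 and Mapk8ip2, which hold JNK kinases to their activators, were called in no test. Mapk8ip1 had an EOM minus leg mean of -0.13 ± 0.25 (SE; adjusted p = 0.736), and Mapk8ip2 of 0.12 ± 0.21 (SE; adjusted p = 0.717).

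Among the PKA genes the type I regulatory subunit gene Prkar1a was called higher in EOM at every day from day 14. In EOM Prkar1a read 10688, 11096 and 11782 at day 0, 11226, 11369 and 13002 at day 7, 13092, 13136 and 12140.2 at day 14, 8970.2, 10670.3 and 12137 at day 21, 10339, 12651 and 11109 at day 28 and 9952, 7987 and 8168 at day 45. The leg arrays of Prkar1a read 10532, 12594 and 13337 at day 0, 10647, 13209.5 and 11638 at day 7, 5062, 9118 and 7924 at day 14, 6153, 6413 and 5693 at day 21, 4516, 5369 and 4827 at day 28 and 4991, 3997 and 3853 at day 45. The ranges of the muscles overlapped at days 0 and 7, and from day 14 every EOM array lay above every leg array. The difference was 0.84 ± 0.17 (SE; adjusted p = 0.00212) at day 14, 0.79 ± 0.17 (SE; adjusted p = 0.00556) at day 21, 1.21 ± 0.17 (SE; adjusted p = 1.08e-05) at day 28 and 1.03 ± 0.17 (SE; adjusted p = 0.000114) at day 45, when EOM was 2.04-fold higher. At days 0 and 7 it was -0.11 and 0.01 (adjusted p = 0.865 and 0.998).

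Prkar1a fell in leg by 1.51 ± 0.17 (SE; adjusted p = 3.63e-08) on the log2 scale from day 0 to day 45, and its change in EOM was -0.37 ± 0.17 (SE; adjusted p = 0.105), not called. The difference between the changes, 1.14 ± 0.24 (SE; adjusted p = 0.00412), was 1 of 2 called among the 48 genes (4.17%, against 3.7% of all tested probe sets), both higher (against 2.25%) and 0 lower (against 1.45%). It held with each of the 12 arrays left out, from 1.04 to 1.26, and was 1.18, adjusted p = 0.00502 without EOM day 45 array 3. The calls at days 14, 28 and 45 held with each array left out too. The day 21 call ended without EOM array 3 (0.69 to 0.90 over the 6 arrays left out singly). Prkar1a has a single tested probe set. Schwann cell and axon markers differed between the muscles too. Their summed signal in leg was 21021 to 25916 at day 0, 26503 to 30973 at day 7, 21571 to 26730 at day 14 and 9805 to 13056 at day 28. In EOM it was 28753 to 30135, 34048 to 42039, 32842 to 41935 and 31803 to 39940.0 at the same days. The part of these cells in the Prkar1a result was not tested.

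Prkaca codes for the main catalytic subunit of PKA. In EOM Prkaca read 5979.5, 4318 and 5286 at day 0, 3747, 5989.7 and 5919 at day 7, 5146, 6438 and 4163 at day 14, 4402, 6009.9 and 3814 at day 21, 4563, 3742 and 3199 at day 28 and 3819.8, 2179.9 and 3816 at day 45. In leg it read 9301, 12292 and 6598 at day 0, 3565, 9854 and 5689 at day 7, 4736, 4859.7 and 4974 at day 14, 3136, 3880.0 and 4451 at day 21, 3707, 3019.8 and 3479 at day 28 and 1992, 2365 and 2140.2 at day 45. The newborn leg arrays lay above the newborn EOM arrays with no overlap, leg array 2 at day 7 was also high, and by day 45 the leg arrays overlapped the EOM range at its low end. Day 45 minus day 0 was -2.08 ± 0.28 (SE; adjusted p = 7.78e-07) in leg, 4.21-fold lower, and -0.70 ± 0.28 (SE; adjusted p = 0.0561) in EOM, which was not called. The difference between the changes was 1.37 ± 0.40 (SE; adjusted p = 0.0456). That call ended on leaving out any of 10 of the 12 arrays (1.16 to 1.64), all but EOM day 45 array 2 and leg day 0 array 3. The second Prkaca probe set gave -0.04 for the same difference (adjusted p = 0.989) and -0.55 for the change in leg (adjusted p = 0.135). Without EOM day 45 array 3 the fall in EOM was called (-0.84, adjusted p = 0.0457).

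The remaining PKA genes moved less. Prkar1b, a second type I regulatory subunit gene known for its expression in neurons, was higher in EOM by 0.37 ± 0.09 (SE; adjusted p = 0.00119) over the 6 days. Its lowest, median and highest arrays read 1818, 2838 and 3902 in EOM and 1434, 2113 and 3788 in leg. Prkar2a, the type II regulatory subunit gene, rose in both muscles. It read 2438, 2969.9 and 1381 at day 45 and 1256, 1542 and 1295 at day 0 in EOM, a change of 0.67 ± 0.22 (SE; adjusted p = 0.0217). In leg the readings were 2349, 2027 and 2072 at day 45 and 1476, 1056 and 1423 at day 0, a change of 0.72 ± 0.22 (SE; adjusted p = 0.0128). The rise in EOM was no longer called without EOM day 0 array 1 or 3 or EOM day 45 array 1 or 2 (0.43 to 0.99 over the 6 arrays left out singly), and that in leg without leg day 0 array 2 or leg day 45 array 1 (0.57 to 0.81 over the 6 arrays left out singly). Without EOM day 45 array 3 the EOM rise was 0.99, adjusted p = 0.000727. Prkacb, a second catalytic subunit gene, was called in no test, with a mean difference of 0.20 ± 0.08 (SE; adjusted p = 0.0632).

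**Figure D4:**
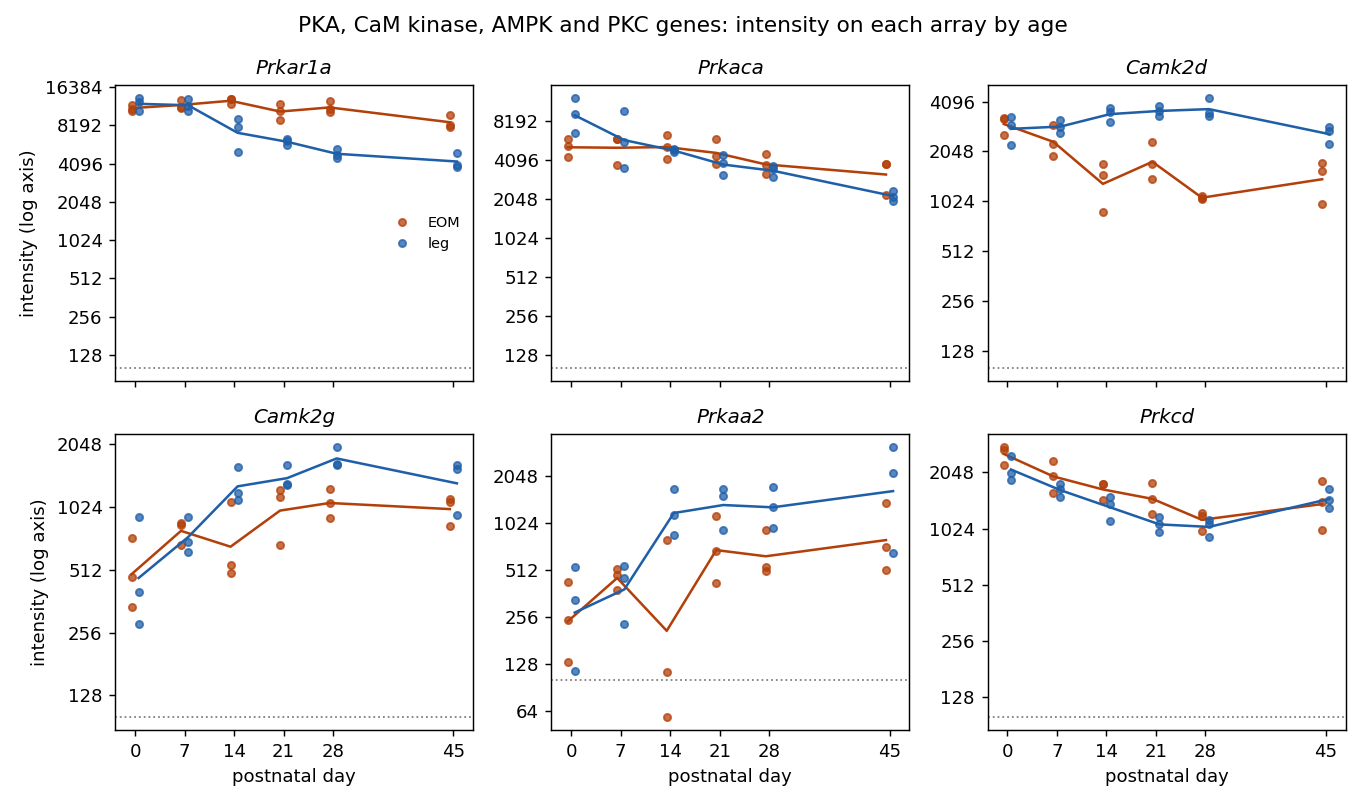
Intensity on each array (points, log axis) by postnatal day for 6 genes of the PKA, CaM kinase, AMPK and PKC families, EOM in orange and leg in blue, with lines through the means of the log2 values and a dotted line at the floor of 100.9. Prkar1a drops in leg between days 7 and 14 and in EOM stays above the leg arrays of the same day from day 14, while Camk2d drops in EOM and stays between 2252 and 4281 in leg.

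Of the 4 AMPK genes, Prkaa2, the catalytic subunit gene most used by skeletal muscle, was the one that changed. In EOM Prkaa2 read 247, 132 and 428 at day 0, 524, 381 and 479.7 at day 7, 59, 115 and 799 at day 14, 424, 1142 and 679 at day 21, 503, 926 and 536 at day 28 and 724, 1374 and 514 at day 45. The leg arrays of Prkaa2 read 116, 332 and 539 at day 0, 456, 233 and 542 at day 7, 1699, 1155 and 864 at day 14, 1527, 1705 and 927 at day 21, 957, 1305 and 1748 at day 28 and 2144, 3149.6 and 663 at day 45. The arrays scattered widely, and at day 14 the leg arrays lay between 864 and 1699, above EOM values of 59, 115 and 799. Day 45 exceeded day 0 by 2.59 ± 0.64 (SE; adjusted p = 0.00198) in leg, 6.0-fold, and by 1.73 ± 0.64 (SE; adjusted p = 0.0374) in EOM. The leg call held with each array left out, and the EOM call ended without EOM day 0 array 1 or 2 or EOM day 45 array 1 or 2 (1.30 to 2.15 over the 6 arrays left out singly). At day 14 the difference was -2.51 ± 0.64 (SE; adjusted p = 0.0159), with 1 EOM array at the floor, so the difference is a lower bound in size. That call ended without EOM array 1 or 2 or leg array 1 or 2 (-3.47 to -1.98 over the 6 arrays left out singly). Over the 6 days the difference was -0.92 ± 0.26 (SE; adjusted p = 0.00708), which held with each array left out. Prkaa1, Prkab1 and Prkag1, the other catalytic gene and a beta and a gamma subunit gene, were called in no test. Prkag1 had 1665, 2377 and 3067 as its lowest, median and highest arrays in EOM and 1811, 2284 and 3442 in leg, with a mean difference of 0.05 ± 0.08 (SE; adjusted p = 0.676).

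Of the 6 PKC genes, 3 were higher in EOM over the 6 days and 0 lower, against 19.8% and 12% of all tested probe sets. Prkcd, whose product answers to diacylglycerol without calcium, declined in both muscles. It read 1008, 1844 and 1426 at day 45 and 2787, 2685 and 2252 at day 0 in EOM, a change of -0.89 ± 0.20 (SE; adjusted p = 0.000892). In leg it read 1666, 1463 and 1314 at day 45 and 1867, 2498 and 2035 at day 0, a change of -0.52 ± 0.20 (SE; adjusted p = 0.0447). In both muscles every array of day 45 lay under every array of day 0. The leg call ended without leg day 0 array 2 or 3 or leg day 45 array 2 or 3 (-0.61 to -0.40 over the 6 arrays left out singly). A second Prkcd probe set gave changes of -2.88 in EOM and -2.49 in leg, both called. Over the 6 days Prkcd was higher in EOM by 0.22 ± 0.08 (SE; adjusted p = 0.0388), a call lost with 17 of 36 arrays left out in turn (0.19 to 0.26) and under both other scalings of the arrays. The second probe set gave 1.12 (adjusted p = 1.02e-06).

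Prkcb, which codes for a calcium-dependent PKC, read 409.9, 243 and 529 in EOM and 160.3, 29.3 and 266 in leg at day 21, ranges that overlapped. The difference of 1.21 ± 0.35 (SE; adjusted p = 0.0488) leaned on leg array 2, at the floor, and the call ended without EOM array 1 or 3 or leg array 1 or 2 (0.86 to 1.56 over the 6 arrays left out singly). The mean for Prkcb over all days was 0.59 ± 0.14 (SE; adjusted p = 0.00189), while the second Prkcb probe set gave -0.02. Prkch was higher in EOM by 0.33 ± 0.09 (SE; adjusted p = 0.00719) over the 6 days, with lowest, median and highest arrays of 875, 1314 and 1691 in EOM and 749, 1039.6 and 1509 in leg. Its second probe set gave -0.02. Prkce rose in EOM, reading 1294, 2188 and 1282 at day 45 and 1245, 1026 and 586 at day 0, by 0.76 ± 0.25 (SE; adjusted p = 0.0198), a call that ended without EOM day 0 array 3 or EOM day 45 array 2 (0.44 to 0.99 over the 6 arrays left out singly). Its 3 other probe sets gave 0.20, -0.39 and 0.58, none called.

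Prkcz, an atypical PKC gene, fell in leg to 87, 97.9 and 96.9 at day 45, all at or under the floor of 100.9, against 191, 376 and 408 at day 0. The log2 change of -1.61 ± 0.62 (SE; adjusted p = 0.0443) is therefore a lower bound in size, at least 3.05-fold. The call ended without leg day 0 array 2 or 3 or leg day 45 array 1, 2 or 3 (-1.96 to -1.41 over the 6 arrays left out singly). Prkca lay at the floor on 15 of 18 EOM arrays and 9 of 18 leg arrays and was called in no test. Prkg2, the cyclic GMP-dependent kinase gene, was not called either, with a mean difference of 0.04 ± 0.14 (SE; adjusted p = 0.868) and 164, 311 and 457 as lowest, median and highest EOM arrays against 139, 301 and 529 in leg.

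Of the 8 CaM kinase genes, 0 were called higher and 3 lower in EOM over the 6 days, against 19.8% and 12% of all tested probe sets. All 3 are among Camk2a, Camk2b, Camk2d and Camk2g, which code for the subunits of CaM kinase II. The largest of these differences was that of Camk2d. In EOM Camk2d read 2576, 3216 and 3253 at day 0, 1922, 2257 and 2955 at day 7, 882, 1472 and 1711 at day 14, 1725, 2329.5 and 1389 at day 21, 1065, 1063 and 1102 at day 28 and 1556, 1749 and 991 at day 45. The leg arrays of Camk2d read 2252, 3295 and 2969.6 at day 0, 2879.9, 3174 and 2653 at day 7, 3545, 3065 and 3749 at day 14, 3611, 3849.7 and 3351 at day 21, 3368, 3481 and 4281 at day 28 and 2283, 2705 and 2866 at day 45. From day 14 every EOM array was below every leg array, and the EOM group means were lower than at days 0 and 7. The difference was -1.40 ± 0.23 (SE; adjusted p = 0.000129) at day 14, -1.02 ± 0.23 (SE; adjusted p = 0.0068) at day 21, -1.78 ± 0.23 (SE; adjusted p = 2.03e-06) at day 28 (3.43-fold) and -0.90 ± 0.23 (SE; adjusted p = 0.00841) at day 45. The calls at days 14 and 28 held with each array left out. The day 21 call ended without EOM array 3 (-1.22 to -0.84 over the 6 arrays left out singly), and the day 45 call without EOM array 3 (-1.07 to -0.66 over the 6 arrays left out singly). In EOM day 45 minus day 0 was -1.11 ± 0.23 (SE; adjusted p = 0.000301), and the change in leg was -0.11 ± 0.23 (SE; adjusted p = 0.758).

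Which Camk2d probe set is read matters. Of its 3 others, 1 gave -1.56 at day 14 (adjusted p = 0.0598), -1.48 at day 28 (adjusted p = 0.0445) and -0.69 over the 6 days (adjusted p = 0.00762). The other 2 gave -0.04 and -0.11 at day 14, 0.18 and -0.05 at day 28 and -0.0 and -0.14 over the 6 days, none called. The first was above 320 on 8 of 36 arrays, the other 2 on 25 and 36. All 3 were above 0 for the change with age in EOM, at 0.44, 0.50 and 0.63, none called, and the mean of the 4 probe sets gave 0.12. The transcripts that each probe set detects were not examined.

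Camk2a, the subunit gene best known from the brain, was dim, with 7 of 18 EOM and 3 of 18 leg arrays at the floor. Its lowest, median and highest arrays read 33, 136 and 358 in EOM and 48.5, 271 and 915 in leg, and the difference over the 6 days was -0.87 ± 0.28 (SE; adjusted p = 0.0184). Its second probe set gave -0.14 (adjusted p = 0.734). Camk2g rose with age, reading 1558, 1623 and 935 at day 45 and 399, 279.8 and 916 at day 0 in leg, a change of 1.51 ± 0.34 (SE; adjusted p = 0.000904). In EOM it read 1122, 831 and 1079 at day 45 and 339, 471 and 728 at day 0, a change of 1.04 ± 0.34 (SE; adjusted p = 0.0204), which did not hold without EOM day 0 array 1 or 2 or EOM day 45 array 1 or 3 (0.78 to 1.33 over the 6 arrays left out singly). The second Camk2g probe set rose by 1.79 in EOM and 1.94 in leg, both called. Over the 6 days Camk2g was lower in EOM, at -0.41 ± 0.14 (SE; adjusted p = 0.0259), and the second probe set gave 0.09. Camk2b was called in no test, at -1.17 ± 0.38 (SE; adjusted p = 0.0763) for day 14. With the replicate number as a block, a pairing the labels do not state, the day 14 value was called (-1.17, adjusted p = 0.0195). So was the mean over the 6 days (-0.37, adjusted p = 0.0222, against 0.0737 without the block). At day 14 Camk2b read 1876, 1929 and 4912 in EOM and 6598, 5385 and 5738 in leg, with no overlap.

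Camk1 differed between ages in EOM (F = 3.61, adjusted p = 0.0381) and in leg (F = 3.52, adjusted p = 0.0388), with the highest mean at day 0 and the lowest at day 21 in both muscles. At day 21 Camk1 read 73.4, 358.6 and 215.0 in EOM and 70.5, 44.8 and 402.7 in leg, with the floor at 100.9. Over all days 1 EOM array and 4 leg arrays lay at the floor, so its low means are limited by it. EOM day 21 array 1 had high leukocyte signal, and the F test of Camk1 is given with all arrays only. The upstream kinase genes Camkk1 and Camkk2, and Camk1g, were called in no test. Nor was Camkv, which codes for a CaM kinase-like protein without kinase activity, at 0.34 ± 0.20 (SE; adjusted p = 0.209) over the 6 days.

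Akt1 and Akt2 code for kinases of the insulin and growth factor pathway, the second known for glucose uptake. Akt1 declined in both muscles. It read 4592, 5166 and 3782 at day 45 and 7950.4, 5978 and 9208 at day 0 in EOM, a change of -0.76 ± 0.17 (SE; adjusted p = 0.000761). In leg it read 4983, 5388 and 4597 at day 45 and 7889.8, 10861 and 7866 at day 0, a change of -0.82 ± 0.17 (SE; adjusted p = 0.000333). Both calls held with each array left out, and a second probe set gave -0.88 in EOM and -1.06 in leg, both called. Between the muscles Akt1 was -0.20 ± 0.07 (SE; adjusted p = 0.0299) over the 6 days, a call that ended with the replicate number as a block (adjusted p = 0.0629) and without EOM day 0 array 2, EOM day 7 array 2, EOM day 21 array 3, leg day 0 array 2, leg day 7 array 2 or leg day 14 array 2 (-0.22 to -0.17 over the 36 arrays left out singly).

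Akt2 read 878, 1188 and 1369 in EOM and 3177, 2134 and 1746 in leg at day 45. The EOM arrays lay below the leg arrays, with a difference of -1.02 ± 0.32 (SE; adjusted p = 0.0353), and the call ended without EOM array 1 or 2 or leg array 1 or 2 (-1.21 to -0.78 over the 6 arrays left out singly). A second probe set gave -2.13 (adjusted p = 0.0503). Over the 6 days the difference was -0.34 ± 0.13 (SE; adjusted p = 0.0455), a call lost with 21 of 36 arrays left out in turn (-0.38 to -0.28). Aktip, which codes for a protein that binds Akt, read 1427, 1257 and 1336 in EOM and 863, 988 and 559 in leg at day 28, a difference of 0.78 ± 0.23 (SE; adjusted p = 0.0225) that ended without EOM array 1 or 3 or leg array 3 (0.54 to 0.95 over the 6 arrays left out singly). Its second probe set gave 0.14.

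Rps6kb1, which codes for the S6 kinase that mTOR switches on to promote protein synthesis, was lower in EOM, at -0.42 ± 0.09 (SE; adjusted p = 0.00036) over the 6 days, and a second probe set gave -0.50 (adjusted p = 0.000773). At day 14 it read 1030.1, 979 and 994 in EOM and 2036, 1816 and 1258 in leg, with no overlap. That difference was -0.74 ± 0.21 (SE; adjusted p = 0.0348), which ended without EOM array 1, 2 or 3 or leg array 1 or 2 (-0.94 to -0.59 over the 6 arrays left out singly). In leg it fell to 1326, 1137 and 1116 at day 45, against 1636, 1774 and 2148 at day 0, by 0.63 ± 0.21 (SE; adjusted p = 0.0211) on the log2 scale. That fall was not called without leg day 0 array 3 or leg day 45 array 2 or 3 (-0.71 to -0.52 over the 6 arrays left out singly). The second Rps6kb1 probe set gave -0.43 at day 14 (adjusted p = 0.463) and -0.46 for the fall in leg (adjusted p = 0.207).

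Set side by side, the changes from day 0 to day 45 had 5 genes called higher in both muscles, Camk2g, Mapk12, Mapkapk3, Prkaa2 and Prkar2a, and 4 called lower in both, Akt1, Map3k1, Mapk7 and Prkcd. These were 10.4% and 8.33% of the 48, against 8.14% and 11.9% of all tested probe sets. Calls in opposite directions numbered 0 of 48, against 0.24% of all tested probe sets. In EOM 6 were higher and 6 lower, where 12.9% and 18.4% of all tested probe sets were, and the median change was -0.11 for the 48 genes and -0.04 for all probe sets. Other cell types moved with age in EOM too. Of the fat cell markers 5 of 5 rose there, with a median change of 1.44 and sums of 29771 to 32753 at day 45 and 14343 to 17762 at day 0, and in leg 1 of 5 rose. Of the gland and epithelium markers 7 of 8 fell in EOM, with a median of -3.65, and of the erythroid markers 2 of 4 rose and 1 fell. Their part in the kinase changes was not tested. In leg 8 kinase genes were higher and 9 lower, where 14.4% and 18.4% were, with medians of 0.12 and 0.06. Under quantile normalization leg had 8 higher and 6 lower. Without EOM day 45 array 3, 11 genes were called in EOM in place of 12, with the calls of Camk2g and Map3k12 ended (0.99, adjusted p = 0.0587 and -1.32, adjusted p = 0.145). The fall of Map3k12 in EOM, -1.84 ± 0.62 (SE; adjusted p = 0.022), also ended without EOM day 0 array 1 or 2. By the F test over all ages, 11 genes differed between ages in EOM (22.9%, against 31.3% of all tested probe sets) and 17 in leg (35.4%, against 35.9%). The largest F values were those of Map3k1 in EOM (34.18) and Prkar1a in leg (27.51). A gene called in one muscle and not in the other has not been shown to differ between them. By the test of that difference, in the fit without a block, only Prkar1a and Prkaca did. Under quantile normalization that test called 1 gene higher and 1 lower, in place of 2 higher.

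**Figure D5:**
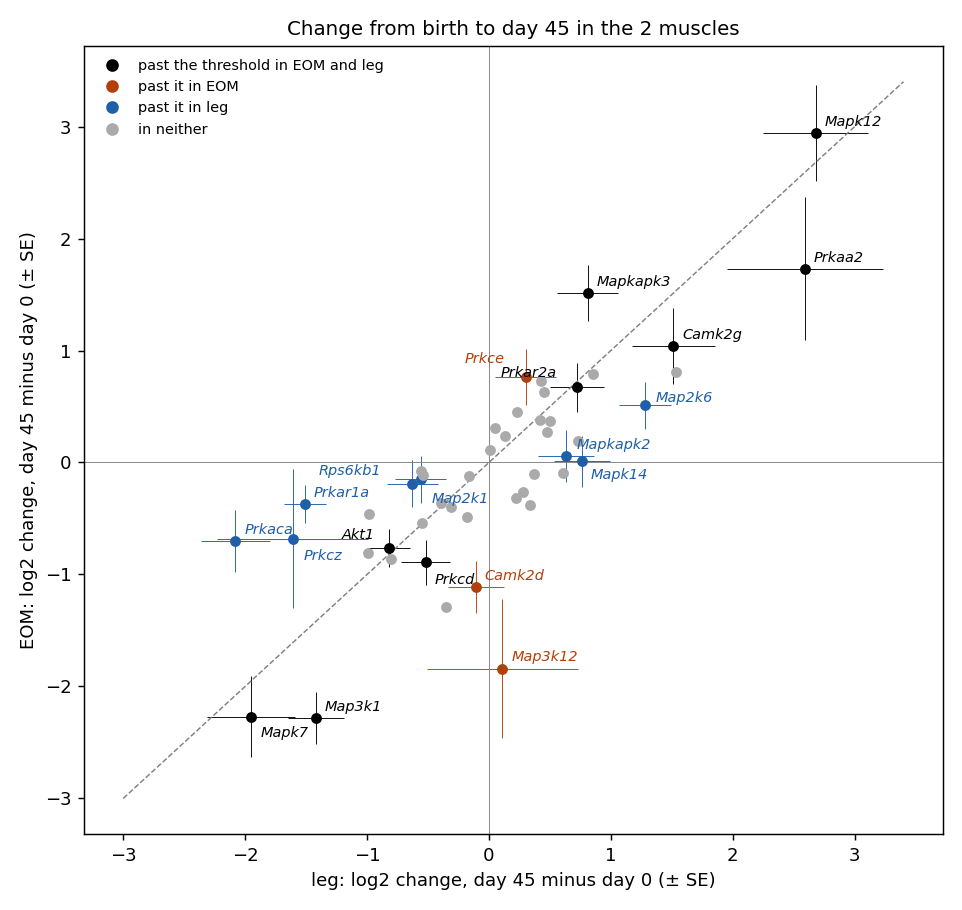
Log2 change from day 0 to day 45 in EOM (vertical axis) against the change in leg (horizontal axis) for the 48 kinase genes, with SE bars for those called in either muscle. Points on the dashed line changed equally. Mapk12 and Prkaa2 lie at the upper right, Mapk7 and Map3k1 at the lower left, and Prkaca and Prkar1a lie left of the line.

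At day 21 the calls depended on single arrays. Without EOM array 3, 1 of the 2 arrays with high leukocyte signal, 0 of the 4 genes was called by limma, with Prkar1a at 0.69, adjusted p = 0.0759 and Camk2d at -0.84, adjusted p = 0.091. Without EOM array 1, 3 remained, all but Prkcb. With all arrays 11 of the 48 had an unadjusted p under 0.05 by limma. The share of all tested probe sets under that limit is not given here, so the count has nothing to be compared with. Scaling the arrays to the same median, which lowers the median difference of all probe sets at day 21 by 0.13, left 0 higher and 1 lower, in place of 3 higher and 1 lower. Quantile normalization left 1 higher and 1 lower at day 21, and at day 28 2 higher and 5 lower, in place of 4 higher and 5 lower.

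The genes that act around these kinases were followed by lists. Their results are given with all arrays and 1 probe set per gene, without the checks made for the kinase genes. Of 17 tested Ras, Raf and receptor partners of the MAP kinase relay, 5 were higher and 0 lower in EOM over the 6 days (against 19.8% and 12% of all tested probe sets), and the list's median difference was 0.18, against 0.04 for all probe sets. The receptor gene Pdgfra was higher in EOM by 0.73 ± 0.10 (SE; adjusted p = 5.87e-07). The 14-3-3 protein gene Ywhaz was higher by 0.47 ± 0.10 (SE; adjusted p = 0.000415) and the receptor gene Fgfr1 by 0.30 ± 0.08 (SE; adjusted p = 0.00484). With age 4 fell in EOM and 7 in leg (against 18.4% of all tested probe sets in each), and 0 rose in either (against 12.9% in EOM and 14.4% in leg). The log2 change of Ywhaz was -0.88 in EOM and -2.01 in leg, and that of Pdgfra -1.65 in EOM and -1.45 in leg.

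Of 9 tested MAP kinase phosphatases and nuclear targets, 1 was higher and 1 lower in EOM over the 6 days (against 19.8% and 12%). Dusp6, a phosphatase of ERK, was higher by 0.44 ± 0.09 (SE; adjusted p = 0.000484). The transcription factor gene Jun turned over with age. It was higher in EOM at day 0, by 1.04 ± 0.25 (SE; adjusted p = 0.00862), and lower at day 45, at -1.17 ± 0.25 (SE; adjusted p = 0.00242), with a difference between the changes of -2.20 ± 0.36 (SE; adjusted p = 0.00021). Dusp6 changed by -1.29 in EOM and -1.72 in leg, both falls.

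Of 19 tested cyclic AMP partners of PKA, 5 were higher and 2 lower in EOM over the 6 days (against 19.8% and 12%). The adenylyl cyclase gene Adcy2 was higher in EOM at day 45 by 1.31 ± 0.23 (SE; adjusted p = 0.000265), and its change with age differed between the muscles by 1.62 ± 0.33 (SE; adjusted p = 0.00273). Pkia, which codes for an inhibitor of PKA, was lower in EOM, at -0.42 ± 0.08 (SE; adjusted p = 0.000133). Adcy6 changed by -2.27 in EOM and -3.06 in leg, both falls. Adrb3, a beta-adrenergic receptor gene, was higher in EOM at day 21 by 1.14 ± 0.24 (SE; adjusted p = 0.00443).

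Of 9 tested calmodulin and calcineurin partners, 2 were higher and 4 lower in EOM over the 6 days (against 19.8% and 12%). The calcineurin subunit gene Ppp3ca was lower, at -0.62 ± 0.10 (SE; adjusted p = 1.12e-05) and Calm2, a calmodulin gene, was also lower, at -0.36 ± 0.09 (SE; adjusted p = 0.0015). The calcium release channel gene Itpr1 was higher by 0.69 ± 0.16 (SE; adjusted p = 0.000859). Pvalb, which codes for the calcium buffer of fast fibres, rose by 4.96 in EOM and 5.57 in leg.

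Of 16 tested diacylglycerol and phospholipase partners of PKC, 7 were higher and 3 lower in EOM over the 6 days (against 19.8% and 12%). The phospholipase gene Pld1 was higher by 0.86 ± 0.16 (SE; adjusted p = 0.000117) and Plcd4 lower, at -0.81 ± 0.13 (SE; adjusted p = 1.06e-05). Marcks, which codes for a substrate of PKC, changed by -1.36 in EOM and -1.41 in leg, both falls. Of 20 tested partners of Akt, S6 kinase and AMPK, 1 was higher and 3 lower (against 19.8% and 12%). The insulin receptor substrate gene Irs1 was lower in EOM, at -1.11 ± 0.20 (SE; adjusted p = 4.66e-05) and the PI3 kinase gene Pik3cd higher by 0.50 ± 0.08 (SE; adjusted p = 2.35e-05). Slc2a4, which codes for the glucose transporter that insulin and AMPK bring to the surface, rose by 2.92 in EOM and 2.81 in leg.

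Of the 48 genes, 25 had more than 1 tested probe set. Over all called differences with a direction there were 108 comparisons with another probe set of the same gene. In 95 the other probe set had the same sign, in 39 it was also called with that sign, and in 1, Map2k1 in leg, it was called with the opposite one. With the mean of all tested probe sets of a gene in place of 1, 19 calls ended and 1, the change of Camk2d in EOM, turned in sign. Besides those named above they were Aktip at day 28 (0.46, adjusted p = 0.16), Camk2d at days 21 and 45 (-0.34, adjusted p = 0.446, and -0.42, adjusted p = 0.256), Mapk7 at day 14 (1.15, adjusted p = 0.117), Mapkapk3 at day 21 (0.73, adjusted p = 0.0528), Prkcb at day 21 (0.68, adjusted p = 0.371), Rps6kb1 at day 14 (-0.59, adjusted p = 0.0631), Prkce in EOM (0.29, adjusted p = 0.393), Map2k1 in leg (-0.10, adjusted p = 0.705) and the difference of the changes of Prkaca (0.67, adjusted p = 0.392). Over the 6 days they were Akt1 (-0.21, adjusted p = 0.0536), Camk2g (-0.16, adjusted p = 0.33), Mapk7 (0.32, adjusted p = 0.158), Prkcb (0.29, adjusted p = 0.157) and Prkch (0.15, adjusted p = 0.397). The 18 genes called in none of the 12 tests were Camk1g, Camk2b, Camkk1, Camkk2, Camkv, Map3k3, Map3k9, Mapk4, Mapk8, Mapk8ip1, Mapk8ip2, Mapk9, Prkaa1, Prkab1, Prkacb, Prkag1, Prkca and Prkg2.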

How the data were processed

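Intensity values of 8799 probe sets on 36 arrays were used as deposited, on a linear scale. In the deposited values each array's mean between its 2nd and 98th percentile was 1500, a common target. How probes were combined into 1 value, and with which program, is not given here by labels or headers, and 44 values are 0. Gene symbols came from the platform annotation, in which 7006 probe sets have 1 symbol and 308 several, which were not named. Here 59 control probe sets were left out, values under the 20th percentile (100.9) were raised to it, log2 was taken, and probe sets above 320 on 3 or more arrays were kept.

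A limma model (version 3.58.1, R 4.3.3) with 1 mean per group and a trended prior variance was fitted to the 36 arrays together, with Benjamini-Hochberg adjustment over 6674 probe sets in each of 12 comparisons: EOM minus leg at each day and over the 6 days, day 45 minus day 0 in each muscle, the difference of these changes, and an F test over ages in each muscle. The fit was also run on simulated data with independent noise on each array. Those data had no floor and no arrays standing apart, so they say nothing of such features here. Figures were drawn with matplotlib 3.10.9. Alternatives were the filter, the floor, the scaling, the prior variance, the arrays in the fit, the choice of probe set, a replicate block and each array left out.

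The kinase genes, partner lists and cell type markers were chosen with earlier results of these data known. Values on all arrays are printed for 8 genes picked after their values were seen, and for other called genes those of the arrays compared or the lowest, median and highest, which is fewer than the planned rule (all arrays for the largest differences each way in each comparison). Of each partner list up to 4 called genes in a comparison could be named, and which of them are named here was chosen after their values were seen. The labels number arrays 1 to 3 and do not say that a number marks a shared animal. Arrays of the same number deviated together at days 7, 14 and 21 (r between 0.101 and 0.369, every pair above 0.1). Blocked values are therefore given there, and for the mean over the 6 days, where they change a call. Blocked counts, and a blocked value of Map3k12, are given at the end for other comparisons. Arrays of unlike number were not compared in this way, and the blocked comparison of the muscles pooled all 6 days. At the other days 1 or more pairs were below 0.1.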

Additional observations from a re-analysis of the deposited data

Results flagged for a closer look

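Prkar1a and Prkaca are listed because their changes from day 0 to day 45 differed between the muscles by the test of that difference itself. For Prkar1a the change in EOM exceeded that in leg by 1.14 on the log2 scale (SE 0.24, limma adjusted p = 0.00412), with changes of -0.37 in EOM and -1.51 in leg. For Prkaca it exceeded it by 1.37 (SE 0.40, limma adjusted p = 0.0456), with changes of -0.70 in EOM and -2.08 in leg. The second Prkaca probe set gave -0.04, and the Prkaca call ended without any of 10 of the 12 arrays.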

How the results depend on the processing

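Of 82 called results of single genes, 32 kept their sign and their call under every alternative, and 1 reversed: the change of Camk2d in EOM was 0.12 with the mean of all its probe sets, in place of -1.11. The counts below are of the 48 genes, and the share of all tested probe sets under each alternative is not given here. Whether a change in a count was particular to these genes cannot be told from them. Without the filter on dim probe sets, 1 was called at day 0, 1 at day 7, 2 at day 21 and 1 for the difference of the changes. With arrays scaled to the same median, 1 was called at day 21 and 1 for the difference of the changes. Quantile normalization gave 2 at day 21, and a prior variance without trend gave 1 for the difference of the changes. With only the arrays compared in the fit, which leaves fewer arrays to estimate the spread, 1 was called at day 0, 0 at day 7, 3 at day 14, 0 at day 21, 4 at day 28, 1 at day 45 and 0 for the difference of the changes. At the 3 counts of 0, limma with all arrays gave 2, 4 and 2 in that order, with 4, 11 and 7 genes at an unadjusted p under 0.05. Shares of all tested probe sets at that unadjusted p are not given here either. Leaving out each array in turn gave 1 to 2 calls at day 0, 1 to 2 at day 7, 4 to 6 at day 14, 0 to 4 at day 21, 5 to 9 at day 28, 3 to 5 at day 45, 17 to 22 over the 6 days, 8 to 11 for the change in EOM, 13 to 15 for that in leg, 1 to 3 for the difference of the changes, and 8 to 14 and 13 to 18 by the F test over ages in EOM and leg. With the replicate number as a block the counts were 2, 2, 8, 3, 9 and 6 from day 0 to day 45, 20 over the 6 days, 12 and 17 for the changes in EOM and leg, 3 for their difference, and 13 and 19 by the F test. The gene added for the difference of the changes was Map3k12, at -1.94 (limma adjusted p = 0.028, against 0.283 without the block). At days 0, 28 and 45 not every pair of arrays with the same number correlated above 0.1. Values at or near the floor, as for Prkca, Prkcz, Camk2a and some arrays of Camk1, have no order among themselves and limit what can be seen of these genes. The causes of these changes were not tested.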
